A study of Homo sapiens with 4 samples.

Results

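The S100 proteins are a family of small calcium-binding proteins, and 10 of their genes were followed here out of the 58825 gene rows counted in LoVo cells. They comprise 9 genes of chromosome 1 (S100A2, S100A4, S100A6, S100A9, S100A10, S100A11, S100A13, S100A14 and S100A16) and S100P, which lies apart on chromosome 4. The genes were listed by name and chosen by their measured counts in MET+ and MET-KO cells, which were already known, so their own levels and fold changes are given as a description and carry no test.

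LoVo is an established human colorectal cancer line in which the receptor tyrosine kinase MET is constitutively active. MET+ cells were the wild-type control of the experiment, labelled as a GFP control, and MET-KO cells were made by CRISPR-Cas9 knockout of MET with puromycin selection and picking of single clones. Each group had 2 biological replicates, and whether both MET-KO libraries came from 1 clone is not given in the sources used here, so a difference between the groups cannot be told apart from a difference between clones. RNA was counted by 3' end sequencing, in which each transcript gives reads at its end only, so CPM values, counts scaled to the library total after its TMM correction, were not divided by gene length.

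The 4 libraries held 8429142 and 10286552 counts in MET+ and 10137583 and 10228991 in MET-KO cells, so that 3 counts, the upper limit that a count of 0 allows, corresponded to 0.292 to 0.356 CPM of the uncorrected totals, for counting error only. MET (chr7:116672390-116798386 on GRCh38) had 2794 and 3272 counts in MET+ and 861 and 965 in MET-KO cells, a log2 fold change of -1.96 ± 0.09 (SE) with an adjusted p of 1.49e-18 by edgeR's quasi-likelihood test. Transcripts of the edited gene were therefore lower but still present, and reads at the 3′ end do not show whether its coding sequence was cut. The authors reported loss of MET protein in MET-KO cells by western blot and immunofluorescence. A list of 9 Y-linked genes summed to 0 and 0 counts in MET+ and to 6773 and 6756 counts in MET-KO cells, a difference between the cells of the 2 groups that lies outside MET. All 5 epithelial markers (EPCAM, KRT8, KRT18, KRT19 and CDH1) were present, with a summed level of 9574 and 9605 CPM in MET+ against 8173 and 7211 CPM in MET-KO cells. That sum was mostly KRT18, which had 6181 and 5859 CPM in MET+ against 5127 and 4631 CPM in MET-KO cells. Of the 5, 4 were called lower in the knockout and 1, KRT8, was not called. The largest falls were in EPCAM (log2 fold change -1.11, adjusted p = 2.18e-12) and CDH1 (-0.88, adjusted p = 2.11e-09). Of 7 colon epithelial markers, CDX1 was at 0 in every library, and the summed level of the list was 109 and 111 CPM in MET+ against 148 and 126 CPM in MET-KO cells. Within that list CDH17 was at least 86.1-fold lower, GPA33 at least 14.4-fold lower and KRT20 at least 7.79-fold higher in the knockout (bounds at 3 counts per library, a mean of 0.335 CPM for MET+ and 0.285 CPM for MET-KO libraries). The higher sum came from CDX2, a transcription factor of the intestine, which had 63.4 and 66.5 CPM in MET+ against 145 and 123 CPM in MET-KO cells (log2 fold change 1.04). Of the 6 colon markers tested, 4 fell and 2 rose, with a median log2 fold change of -5.45, and those that fell included LGALS4 (-6.66) and VIL1 (-4.23). The part of these differences in the S100 results was not tested.

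An S100 protein is usually a dimer of small subunits that each hold a pair of EF-hands, the helix-loop-helix folds that bind calcium. Calcium binding opens a surface on each subunit with which the dimer grips a target, such as an annexin or the myosin heavy chain, so most family members act as calcium-dependent switches on other proteins. Some are also released from cells and bind receptors such as RAGE (AGER) and TLR4. Most human S100 genes lie side by side on the long arm of chromosome 1 within the epidermal differentiation complex, and several, S100P among them, are expressed in epithelia of the gut and in carcinomas.

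The promoter windows of the 5 genes on which the results turn most are shown next, because 3 of them (S100A16, S100A14 and S100A13) are direct neighbours that differed in opposite directions, S100P differed most of all, and S100A2 carried a motif that no other member had. Each window runs 5′ to 3′ on the gene's own strand from 250 bases before to 50 bases after a RefSeq transcript start (GRCh38.p14), and capitals mark matches to the motifs described after the sequences. They lie at chr4:6693628-6693927 (+, S100P), chr1:153613088-153613387 (−, S100A16), chr1:153616276-153616575 (−, S100A14), chr1:153627456-153627755 (−, S100A13) and chr1:153565795-153566094 (−, S100A2).
S100P: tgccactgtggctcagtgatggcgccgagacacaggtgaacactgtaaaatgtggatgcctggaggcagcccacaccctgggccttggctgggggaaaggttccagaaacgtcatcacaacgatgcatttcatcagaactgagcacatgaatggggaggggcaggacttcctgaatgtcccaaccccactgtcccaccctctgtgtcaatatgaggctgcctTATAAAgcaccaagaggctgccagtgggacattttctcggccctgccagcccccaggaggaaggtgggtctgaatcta
S100A16: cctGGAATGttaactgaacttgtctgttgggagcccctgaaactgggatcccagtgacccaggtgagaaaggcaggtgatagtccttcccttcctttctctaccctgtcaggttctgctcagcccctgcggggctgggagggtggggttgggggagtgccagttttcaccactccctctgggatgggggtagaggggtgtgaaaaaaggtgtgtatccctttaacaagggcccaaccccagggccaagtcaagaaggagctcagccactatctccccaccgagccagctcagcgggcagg
S100A14: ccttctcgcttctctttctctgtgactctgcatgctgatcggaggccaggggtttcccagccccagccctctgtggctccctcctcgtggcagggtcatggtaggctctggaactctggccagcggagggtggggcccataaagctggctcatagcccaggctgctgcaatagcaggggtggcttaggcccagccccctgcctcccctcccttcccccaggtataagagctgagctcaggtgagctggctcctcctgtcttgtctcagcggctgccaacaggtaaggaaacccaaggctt
S100A13: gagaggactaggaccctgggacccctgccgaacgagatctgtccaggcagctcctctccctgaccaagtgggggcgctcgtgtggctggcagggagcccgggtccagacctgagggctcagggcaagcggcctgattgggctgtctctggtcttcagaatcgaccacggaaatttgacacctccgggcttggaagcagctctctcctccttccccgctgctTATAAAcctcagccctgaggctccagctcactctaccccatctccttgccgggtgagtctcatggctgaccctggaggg
S100A2: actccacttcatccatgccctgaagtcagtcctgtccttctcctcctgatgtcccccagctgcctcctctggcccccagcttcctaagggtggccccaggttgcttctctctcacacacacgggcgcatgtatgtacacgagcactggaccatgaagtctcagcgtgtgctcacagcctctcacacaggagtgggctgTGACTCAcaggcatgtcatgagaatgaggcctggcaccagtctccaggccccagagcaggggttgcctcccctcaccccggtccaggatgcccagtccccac

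All 10 members had at least one RefSeq window, 14 windows in all, and 4 motifs were searched on both strands. TATAAA, the TATA box, was found at position -28 from the start in S100P, -31 in S100A4, -29 in S100A9 and -29 in one of the S100A13 windows, and in 11.5% of 35116 promoter windows of all genes. TGANTCA, the AP-1 motif, was found in S100A2 alone among the members, at -52, and in 7.71% of all windows. GGAATG, the TEAD motif, was found in both windows of S100A16 and in 14% of all windows. GGGCGG, the GC box, was found in 6 of the 14 member windows (S100A6, S100A9, S100A10, S100A11, S100A13 and S100A16) and in 45% of all windows. In S100A13 and S100A16 it lay in a window that is not shown. The S100A2 window that is not shown held no match. The window of S100A14 held none of the 4. In S100A6, 2 of the 3 GC boxes overlapped each other, and no match overlapped one of another motif. A match is a description of the letters only. The RefSeq start lies inside the GENCODE gene for all 5 sequences shown, by 3855 bases in S100A13, 2046 in S100A2, 809 in S100P, 661 in S100A14 and 8 in S100A16.

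**Figure D1:**
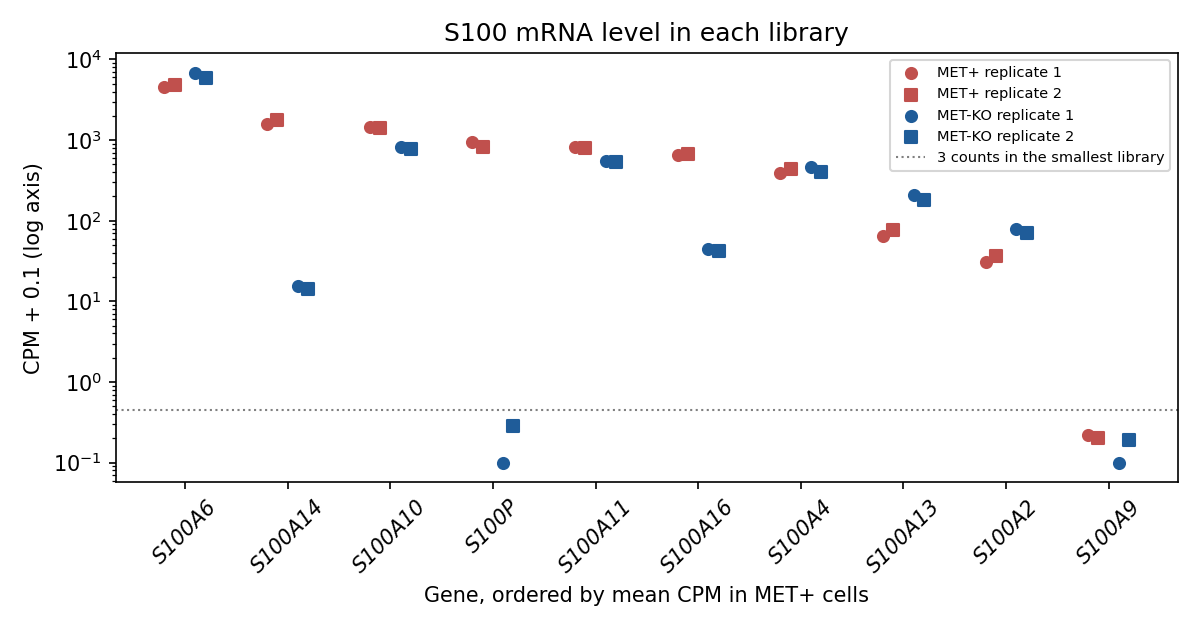
Level of each of the 10 members in the 4 libraries, in CPM + 0.1 on a log axis, with 1 point per library (red for MET+, blue for MET-KO) and a dotted line at 3 counts in the smallest library. S100P drops from 942 and 822 CPM in MET+ to 0 and 0.184 CPM in MET-KO cells, S100A14 and S100A16 lie lower and S100A13 and S100A2 higher in MET-KO cells, and S100A4 overlaps between the groups.

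The levels fell into 3 sets. S100P, S100A14 and S100A16 were much lower in MET-KO cells, S100A10 and S100A11 were moderately lower, and S100A13, S100A2 and S100A6 were higher. S100A4 lay between, with overlapping groups, and S100A9 was hardly counted. Of the 9 members with enough counts to test, 8 passed an adjusted p of 0.05 and 8 had groups that did not overlap. Among all 13801 genes tested, 54.1% were called (27.2% higher, 26.9% lower in the knockout) and 75.6% had groups that did not overlap (38.5% higher, 37.1% lower), and nothing is read from the members' count since this contrast was used to list them. The median log2 fold change of the 8 tested chromosome 1 members was -0.26, beside 0.01 for all tested genes and 0.06 for the 1419 tested genes of chromosome 1. In these bulk samples, fewer cells of a type and less RNA per cell cannot be told apart.

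S100P (ENSG00000163993, chr4:6693069-6697170, + strand), named after the placenta and known as a ligand of RAGE and a partner of ezrin, was the member with the largest difference. Its counts were 7796 and 8006 in MET+ against 0 and 2 in MET-KO cells. Both MET+ libraries were thus high and both MET-KO libraries were under the limit of 3 counts. Scaled to depth, the level was 882 ± 85.1 CPM (SD, n = 2) in MET+ against 0.0921 ± 0.130 CPM (SD, n = 2) in MET-KO cells. The ratio of the summed counts, adjusted for depth, was 9234 with a 95% counting interval from 2556 to 76256 (exact Clopper-Pearson). In MET+ cells S100P ranked 140 among all genes by mean CPM. The fitted log2 fold change of -13.00 depends on the prior count of the fit and is given only for the comparison across settings.

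S100A14 (ENSG00000189334, chr1:153614255-153616986, − strand), an epithelial family member that can form a heterodimer with S100A16, had 13231 and 17062 counts in MET+ against 159 and 155 in MET-KO cells. The groups lay far apart, and the MET-KO libraries still held well over the limit of detection. The level was 1675 ± 108 CPM in MET+ against 14.9 ± 0.931 CPM in MET-KO cells (SD, n = 2 per group), which gave a log2 fold change of -6.81 ± 0.13 (SE), or 112-fold lower. By mean CPM the gene went from rank 76 in MET+ to rank 7488 in MET-KO cells.

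S100A16 (ENSG00000188643, chr1:153606886-153613145, − strand), a broadly expressed member whose gene lies 1109 bases from that of S100A14, had 5376 and 6592 counts in MET+ against 460 and 451 in MET-KO cells. The groups again did not overlap. Its level was 663 ± 19.1 CPM in MET+ against 43.3 ± 2.53 CPM in MET-KO cells (SD, n = 2 per group), which gave a log2 fold change of -3.94 ± 0.10 (SE), or 15.3-fold lower. The pair was not lowered in proportion. S100A16 had 0.406 and 0.386 counts for each count of S100A14 in MET+ cells, and 2.89 and 2.91 in MET-KO cells, so the more abundant transcript of the pair was S100A14 in MET+ and S100A16 in MET-KO cells. Log2 fold changes of -3 or lower were seen in 2.34% of all tested genes, and S100P, S100A14 and S100A16 were among them.

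S100A10 (ENSG00000197747, chr1:151982915-151994390, − strand), also called p11, is the family member that has lost calcium binding and forms a stable complex with annexin A2 at the plasma membrane. It had 12097 and 13945 counts in MET+ and 8291 and 8356 in MET-KO cells. Both MET-KO libraries were lower and the replicates of each group were close. The level was 1447 ± 21.6 CPM against 791 ± 30.7 CPM (SD, n = 2 per group), which gave a log2 fold change of -0.87 ± 0.09 (SE), or 1.83-fold lower. ANXA2, its partner, had 1320 and 1316 CPM in MET+ against 1208 and 1143 CPM in MET-KO cells (log2 fold change -0.17, adjusted p = 0.133), a difference that did not pass the test, except without MET-KO replicate 1 (adjusted p = 0.0446). S100A10 therefore had 1.11 and 1.09 counts per ANXA2 count in MET+ cells and 0.673 and 0.673 in MET-KO cells. AHNAK, a very large scaffold protein bound by that complex, rose with a log2 fold change of 0.67 (adjusted p = 1.34e-07).

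S100A11 (ENSG00000163191, chr1:152032506-152047907, − strand), a partner of annexin A1, had 6728 and 7852 counts in MET+ and 5661 and 5792 in MET-KO cells. Its level was 809 ± 5.00 CPM and 544 ± 15.3 CPM (SD, n = 2 per group), which gave a log2 fold change of -0.57 ± 0.09 (SE), or 1.49-fold lower. The groups did not overlap. ANXA1 itself had 190 and 161 CPM in MET+ against 108 and 112 CPM in MET-KO cells and fell by 0.68 on the log2 scale (adjusted p = 4.55e-07), so that S100A11 counts per ANXA1 count, at 4.27 and 4.99 in MET+ and 5.13 and 4.77 in MET-KO cells, overlapped between the groups.

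S100A6 (ENSG00000197956, chr1:153534599-153536244, − strand), calcyclin, was the most abundant member in every library. It had 38014 and 47331 counts in MET+ against 70245 and 64170 in MET-KO cells. Both MET-KO libraries were higher, although in CPM (6888 and 5909) they differed from each other by more than the MET+ libraries did (4594 and 4858). The level was 4726 ± 187 CPM and 6398 ± 692 CPM (SD, n = 2 per group), which gave a log2 fold change of 0.44 ± 0.10 (SE), or 1.35-fold higher, and the rank by mean CPM was 24 in MET+ and 13 in MET-KO cells. Among its known partners, ANXA11 rose from 246 and 249 CPM to 506 and 467 CPM (log2 fold change 0.98, adjusted p = 4.61e-11). CACYBP, the calcyclin-binding protein, had 135 CPM in each of the MET+ libraries and 135 and 133 CPM in the MET-KO libraries (log2 fold change -0.01, adjusted p = 0.939).

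S100A13 (ENSG00000189171, chr1:153618787-153631360, − strand), which takes part in the release of FGF1 and interleukin 1 alpha without a signal peptide, had 533 and 752 counts in MET+ against 2136 and 1965 in MET-KO cells. Each MET-KO library was above both MET+ libraries. The level was 70.8 ± 9.04 CPM and 195 ± 20.1 CPM (SD, n = 2 per group), which gave a log2 fold change of 1.46 ± 0.10 (SE), or 2.75-fold higher. Of its release partners, IL1A had 0 and 2 counts in MET+ against 43 and 65 in MET-KO cells, a depth-adjusted ratio of 46.2 with a 95% counting interval from 12.5 to 386 and an adjusted p of 2.78e-08. SYT1 did not pass the test (log2 fold change 1.14, adjusted p = 0.0527, but 0.0137 without MET+ replicate 1, 0.031 with library totals alone and 0.0435 with no filter), and FGF1 was too low to test.

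S100A2 (ENSG00000196754, chr1:153561108-153567890, − strand), a mostly nuclear member known from keratinocytes, had 252 and 360 counts in MET+ against 804 and 772 in MET-KO cells. The groups did not overlap. Its level was 33.7 ± 4.60 CPM and 75.0 ± 5.47 CPM (SD, n = 2 per group), which gave a log2 fold change of 1.15 ± 0.12 (SE), or 2.22-fold higher. The summed level of 6 keratinocyte markers was 59.9 and 62.4 CPM in MET+ against 61.6 and 52.6 CPM in MET-KO cells. That sum was mostly KRT10, which had 57.5 and 60.3 CPM in MET+ against 48.1 and 43.5 CPM in MET-KO cells and fell by 0.36 on the log2 scale. KRT5 and KRT14, keratins of the basal epidermis, rose 4.87-fold and 3.19-fold (adjusted p = 1.71e-06 and 0.00725). KRT5 had 14 and 14 counts in MET+ against 94 and 66 in MET-KO cells, and IVL, involucrin, had 0 and 0 against 8 and 9. The part of these markers in the S100A2 level was not tested.

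S100A4 (ENSG00000196154, chr1:153543613-153550136, − strand), known as metastasin for its part in cell motility, had 3236 and 4236 counts in MET+ against 4735 and 4320 in MET-KO cells. Scaled to depth, these were 391 and 435 CPM against 464 and 398 CPM, so the groups overlapped. The log2 fold change was 0.06 ± 0.09 (SE) and its sign turned under other settings (range -0.06 to 0.17). MYH9, the heavy chain of non-muscle myosin that S100A4 binds, fell by 0.88 on the log2 scale (adjusted p = 4.33e-10), so S100A4 had 1.22 and 1.37 counts per MYH9 count in MET+ cells and 2.73 and 2.24 in MET-KO cells.

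S100A9 (ENSG00000163220, chr1:153357854-153361027, + strand), a subunit of calprotectin in neutrophils and monocytes, had 1, 1, 0 and 1 counts in MET+ replicates 1 and 2 and MET-KO replicates 1 and 2, all under the limit of 3 counts. It could not be tested, and no difference is detectable at this depth. S100A8, the other calprotectin subunit, had 0 and 0 counts in MET+ and 2 and 7 in MET-KO cells. Of 8 myeloid markers, 4 (PTPRC, CSF1R, FCGR3A and MPO) were at 0 in every library, and the summed level of the list was 6.16 and 9.96 CPM in MET+ against 0.981 and 1.11 CPM in MET-KO cells. The lower sum came from LYZ, lysozyme, which had 38 and 79 counts in MET+ against 3 and 1 in MET-KO cells, and CD68, the other myeloid marker that could be tested, was not called (adjusted p = 0.0846).

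**Figure D2:**
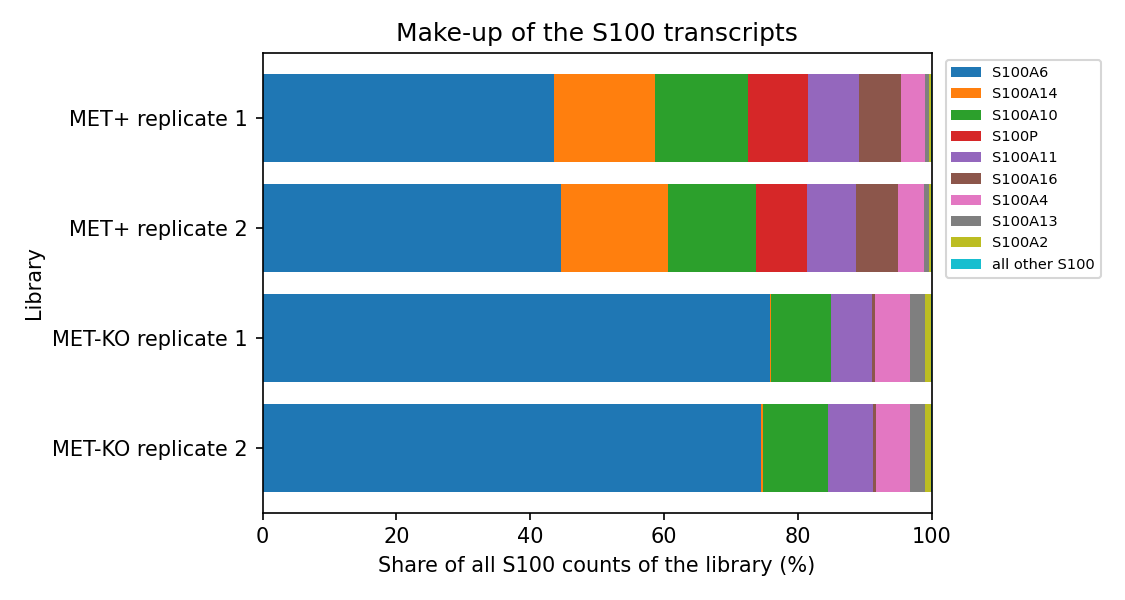
Make-up of the S100 counts of each library, as percent of all S100 counts, with 1 stacked bar per library and 1 colour per gene, all S100 genes outside the 9 shown being pooled. S100A6 takes 43.5% and 44.6% of the bar in MET+ and 75.9% and 74.6% in MET-KO cells, while the S100A14, S100P and S100A16 segments nearly vanish.

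The members together with the rest of the family took 1.04% and 1.03% of all counts in MET+ and 0.913% and 0.841% in MET-KO cells, so the S100 total was only slightly lower while its make-up changed. S100A6 took 43.5% and 44.6% of S100 counts in MET+ and 75.9% and 74.6% in MET-KO cells. S100A14 went from 15.2% and 16.1% to 0.172% and 0.180%, S100P from 8.93% and 7.54% to 0% and 0.00232%, and S100A16 from 6.16% and 6.21% to 0.497% and 0.524%. S100A10 made up 13.9% and 13.1% in MET+ and 8.96% and 9.71% in MET-KO cells. These shares are of one total, so a fall in one member raises the shares of the others.

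Ordered by mean CPM in MET+ cells, the members ran S100A6, S100A14, S100A10, S100P, S100A11, S100A16, S100A4, S100A13, S100A2 and S100A9. Of the neighbours in that order, S100P (882 ± 85.1 CPM) and S100A11 (809 ± 5.00 CPM) differed by less than the SD of S100P. In MET-KO cells the order was S100A6, S100A10, S100A11, S100A4, S100A13, S100A2, S100A16, S100A14, S100P and S100A9. S100A13 and S100A2, at the lower end in MET+ cells, thus stood above S100A16 and S100A14 in MET-KO cells. In that order the libraries of neighbouring genes did not overlap, other than those of S100P and S100A9, which were both under the limit of detection.

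**Figure D3:**
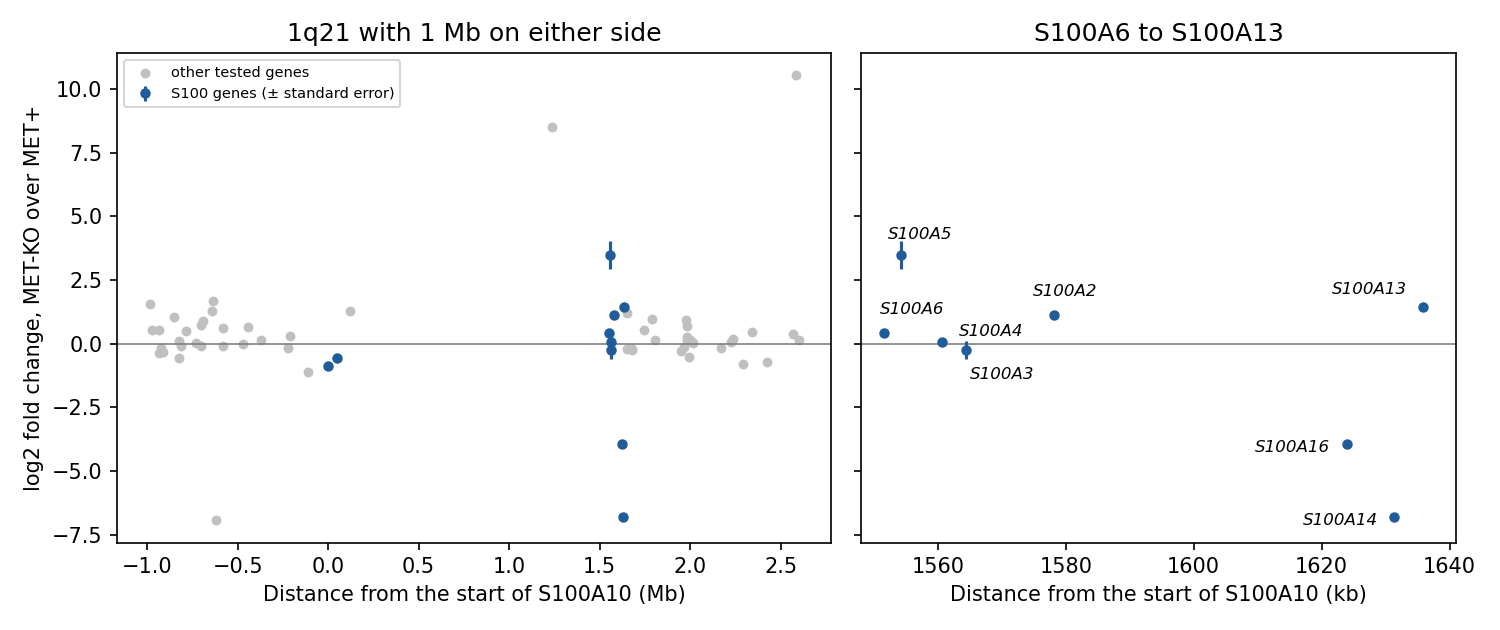
The log2 fold change (MET-KO over MET+) of tested genes against the distance from the start of S100A10, over the whole region in megabases at the left and for the dense S100 group in kilobases at the right, with S100 genes in blue (bars, SE) and other genes in grey. The highest grey points, PRR9 and CHRNB2, have 0 counts in MET+ cells, so their fitted values are no measure of size. The same holds for the lowest grey point, SELENBP1 (-6.94). It has 14 and 14 counts in MET+ and 0 and 0 in MET-KO cells, at least 5.49-fold lower. S100A16 (-3.94) and S100A14 (-6.81) lie low next to S100A13 (1.46), and the tested neighbours outside the family have a median of 0.15.

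On chromosome 1, 17 S100 genes lay between 151982915 and 153632039 (GRCh38), S100A10 and S100A11 at one end and a group of 15 genes within 274186 bases at the other. Differences did not follow this order. S100A2 (log2 fold change 1.15) lay 38995 bases from S100A16 (-3.94), S100A16 lay 1109 bases from S100A14 (-6.81), and S100A14 lay 1800 bases from S100A13 (1.46). At the other side of the dense group, S100A6 (0.44), S100A5 (3.48) and S100A4 (0.06) were separated by 902 and 1847 bases. All of these genes are on the − strand.

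Genes beside the cluster were read as a local background. Among 200 genes outside the family from 1 Mb before to 1 Mb after it, 54 could be tested, of which 14 rose and 6 fell (37.0% called, against 54.1% of all tested genes), with a median log2 fold change of 0.15. THEM4, an acyl-CoA thioesterase 73107 bases before S100A10, was the nearest called gene on that side and fell by 1.11 on the log2 scale (adjusted p = 6.26e-08). On the other side CHTOP, a chromatin protein 1943 bases past the last S100 gene, did not pass the test (log2 fold change -0.21, adjusted p = 0.0581). ILF2, 29749 bases away, fell by 0.25 (adjusted p = 0.035). Its groups overlapped, at 186 and 220 CPM in MET+ against 187 and 155 CPM in MET-KO cells. Within the cluster, PRR9, a gene of the epidermal differentiation complex, had 0 and 0 counts in MET+ and 53 and 46 in MET-KO cells, at least 14.1-fold higher. Within 1 Mb of S100P, 12 of 35 genes could be tested, of which 2 rose and 5 fell, with a median of -0.07. The share called was 58.3%, near the 54.1% of all tested genes. The called genes nearest to S100P were LINC02482 (2.16, adjusted p = 5.34e-08, 19173 bases before) and MRFAP1L1 (-0.59, adjusted p = 4.26e-06, 10531 bases after).

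The other 11 S100 genes of the table were nearly silent, and 2 could be tested. S100A5, between S100A6 and S100A4, had 5 and 2 counts in MET+ against 53 and 41 in MET-KO cells and rose with a log2 fold change of 3.48 ± 0.55 (SE, adjusted p = 1.91e-06), a depth-adjusted ratio of 11.5 with a 95% counting interval from 5.36 to 29.4. S100A3 had 25 and 43 counts in MET+ and 35 and 31 in MET-KO cells and did not pass the test (adjusted p = 0.569). S100A7, S100A7A, S100A7L2, S100A12 and S100B were at 0 in every library, and S100A1, S100G and S100Z had at most 5 counts in any. Of 7 fused-type S100 genes of the epidermal differentiation complex, which carry an S100 domain at the start of a long structural protein, 1 could be tested, TCHH (log2 fold change 1.29, adjusted p = 0.0814).

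**Figure D4:**
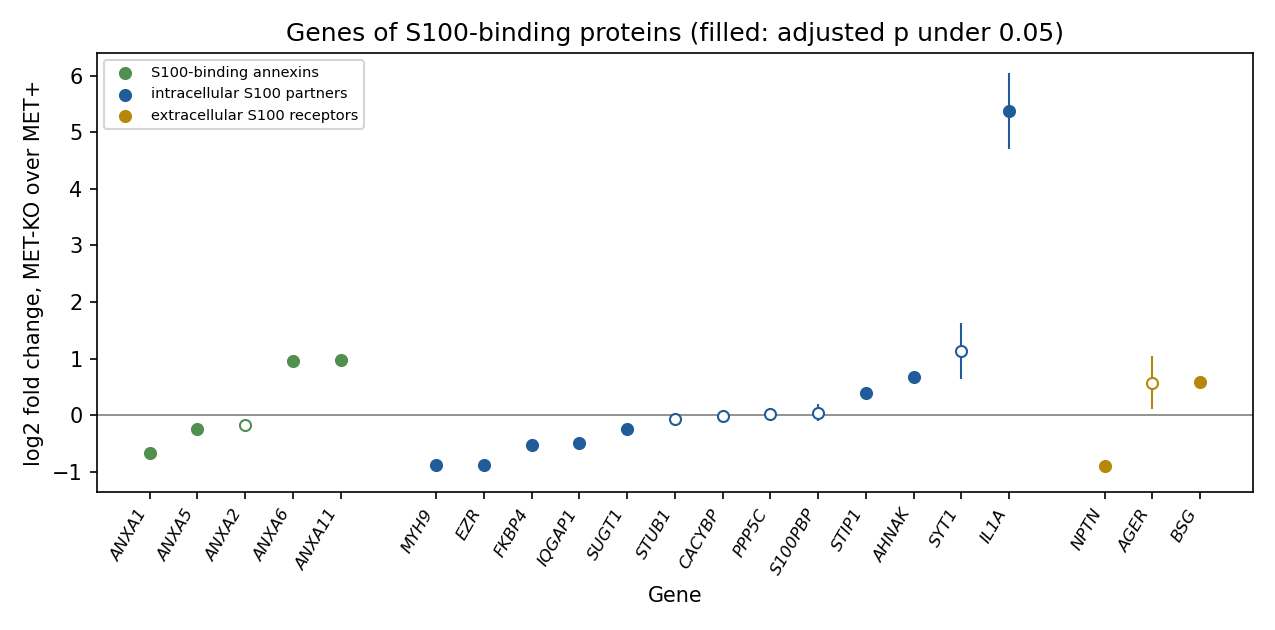
The log2 fold change (MET-KO over MET+, bars SE) of tested S100 partner genes named in the text or not called, coloured as annexins, intracellular partners and extracellular receptors, with filled points for an adjusted p under 0.05. ANXA11, ANXA6 and IL1A lie above 0, MYH9, EZR and NPTN below 0, and ANXA2, CACYBP and S100PBP near 0.

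Of 26 genes that encode partners of S100 proteins, 22 could be tested, 7 rose, 8 fell and 7 did not pass, with a median log2 fold change of 0.00. The share called was 68.2%, beside 54.1% of all tested genes. Among the 5 annexins, membrane-binding proteins that S100 dimers bridge, ANXA11 and ANXA6 rose (0.98 and 0.95) and ANXA1 fell (by 0.68). ANXA5 fell by 0.25 (adjusted p = 0.0222), a call lost without MET+ replicate 1 (adjusted p = 0.17), MET+ replicate 2 (0.0523) or MET-KO replicate 2 (0.0702), and also with library totals alone (0.182), the DESeq2 Wald test (0.0511) and a replicate block (0.0619). Within the intracellular partners, 14 of 16 could be tested, 4 rose and 5 fell. Those that rose included IL1A, AHNAK and STIP1, a co-chaperone of HSP90 (0.39, adjusted p = 0.00124, and 0.0793 without MET+ replicate 2). Those that fell were MYH9, EZR, IQGAP1, the HSP90-bound immunophilin FKBP4 (by 0.52, adjusted p = 2.36e-05) and SUGT1 (by 0.25, adjusted p = 0.0345, a call lost without MET+ replicate 1, MET+ replicate 2 or MET-KO replicate 2 and under 5 of the other settings, at adjusted p = 0.0592 to 0.238).

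The partners of S100P were divided. EZR, which encodes ezrin, the link between membrane and actin that S100P activates, fell from 403 and 398 CPM to 222 and 214 CPM (log2 fold change -0.88, adjusted p = 3.79e-10). IQGAP1, a scaffold of the actin cortex, fell from 176 and 177 CPM to 126 and 125 CPM (log2 fold change -0.49, adjusted p = 2.85e-05). S100PBP, named for its binding of S100P, was at 21.3 and 21.2 CPM in MET+ against 21.9 and 22.0 CPM in MET-KO cells (log2 fold change 0.05, adjusted p = 0.823).

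Of 5 genes for cell-surface receptors of released S100 proteins, 3 could be tested. BSG, basigin, which S100A9 binds, rose (0.58, adjusted p = 4.59e-05), although MET+ replicates differed widely at 125 and 180 CPM and the DESeq2 Wald test gave an adjusted p of 0.0585. NPTN, neuroplastin, a receptor of S100A8, fell by 0.90 (adjusted p = 1.51e-09). AGER, which encodes RAGE, was low, at 1.93 and 1.23 CPM in MET+ against 3.04 and 1.66 CPM in MET-KO cells, and did not pass the test (0.58, adjusted p = 0.312). TLR4 had 8 and 13 counts in MET+ and 0 and 0 in MET-KO cells, at least 4.03-fold lower, and was below the level set for testing, as was CD36 with at most 12 counts.

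EF-hand genes outside the family were compared as genes with the same calcium-binding fold. Of 32, 29 could be tested, 6 rose and 9 fell (51.7% called, against 54.1% of all tested genes), with a median log2 fold change of -0.08. CALM2 rose from 380 and 358 CPM to 950 and 902 CPM (log2 fold change 1.33, adjusted p = 3.03e-14) and CALM3 fell by 0.25 (adjusted p = 0.0265, and 0.327 without MET+ replicate 2, 0.189 without MET-KO replicate 2, 0.146 with library totals alone and 0.058 with a replicate block). SRI, which encodes sorcin, rose with a log2 fold change of 0.93 (adjusted p = 2.54e-09). The lowest of the 32 were CALB2, calretinin (-5.01, adjusted p = 4.54e-12), CIB1, an integrin-binding calcium sensor (-2.07, adjusted p = 1.15e-18), and HPCAL1 (-0.90, adjusted p = 7.91e-09). The list does not hold every EF-hand gene. CALB1, which is not on it, had 6404 and 7240 counts in MET+ against 3 and 0 in MET-KO cells. Its depth-adjusted ratio was 5315, with a 95% counting interval from 1818 to 25778.

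The genes most like S100P and S100A14 in their pattern over the 4 libraries were found by the root mean square difference of log2(CPM + 0.5) after centring each gene. For S100P they were REG4, a secreted lectin of gut epithelium (0.193, with 6887 and 8211 counts in MET+ and 0 and 0 in MET-KO cells), the long non-coding RNA AP000547.3 (0.426, with 3510, 4578, 0 and 0 counts) and CALB1, calbindin, another EF-hand gene (0.430, with 6404, 7240, 3 and 0 counts). For S100A14 the closest were CEACAM5, the carcinoembryonic antigen (0.0859, with 392, 487, 0 and 0 counts) and HAS2, a hyaluronan synthase (0.130, with 960, 1169, 7 and 4 counts). With 2 libraries in each group this measure mainly ranks genes by the size of their difference between the groups. For a gene at 0 counts in MET-KO cells, that size is set by the 0.5 CPM added. CEACAM5, at 0 and 0 counts there, thus came out close to S100A14, which still had 159 and 155 counts.

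Reads of overlapping genes were looked at, since the strand setting of the counting is not given in the sources used here. S100A13 overlaps S100A1 on the opposite strand (0, 2, 0 and 0 counts) and AL162258.1 on the same strand (0 counts in every library). Whether reads in that same-strand overlap were left out of the S100A13 count was not tested. S100A3 lies inside S100A4 on the same strand. Of the 50-base words in the last 500 bases of each member, 44.8% for S100A13 were shared with AL162258.1, a gene at 0 counts, 2.66% for S100A11 with AC006483.1, and 0 of 451 words for the other 8 members.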

How the data were processed

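RNA of LoVo cells was sequenced as QuantSeq 3' libraries, 2 MET+ and 2 MET-KO. The authors deposited 1 file per library with raw counts per Ensembl gene, not normalized, and 99 spike-in rows that were all 0 and were left out. The submitters' processing notes name bcl2fastq, cutadapt 1.16, FastQC 0.11.7, MultiQC 1.5, STAR 2.5.4a, featureCounts 1.6.2, DESeq2 1.18.1 and GRCh38, and the annotation release and strand setting are not given in the sources used here. Names and positions came from GENCODE 29 (58552 of 58825 IDs matched), and promoter windows from RefSeq on GRCh38.p14.

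Gene-wise tests used edgeR 4.0.16 under R 4.3.3 (filterByExpr by group, TMM scaling, quasi-likelihood test, condition as the only term), with Benjamini-Hochberg adjustment over all 13801 tested genes and a threshold of 0.05. The SE is the absolute log2 fold change divided by the square root of the F statistic. The fitting code was also run on counts simulated with few changed genes and the same spread for every gene. That setting differs from these data, so nothing is read from it. Low counts were compared by exact Clopper-Pearson intervals, which cover counting error only. p-values measure the spread between 2 libraries per group.

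The members and gene lists were chosen with earlier results of these data known. Named were all members, other S100 genes with 10 or more counts in any library, up to the 3 highest and 3 lowest called genes of each list, partners of a described member, the called genes nearest to each side of the cluster and of S100P, and the 3 genes most like S100P and S100A14. PRR9, CHRNB2, SELENBP1, CHTOP, CDH17, GPA33, KRT20, TLR4, CD36, CD68, IVL, CALM3, and the S100 genes and TCHH given with low counts or no call, were named after their values were seen. Some genes that the rule names are not reported here, but stay in the counts. Markers of fibroblasts (summed level 1.64 to 4.24 CPM) and endothelium (0 to 0.924 CPM) were checked as well. Alternatives were other size factors (DESeq2's, and library totals alone), a Wald test in DESeq2 1.42.0, a fit of all genes with no filter, a stricter filter of 10 counts per library, a block for the replicate number, libraries thinned to the smallest depth, and each library left out in turn.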

Additional observations from a re-analysis of the deposited data

How the results depend on the processing

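None of the called genes recomputed here changed direction under an alternative, while some genes without a call changed sign, among them S100A4 (-0.06 to 0.17) and CACYBP (-0.01, and 0.09 with library totals alone). Of the values of the main comparisons under an alternative, 91 kept their size or count and 7 moved. The median of the genes beside the chromosome 1 cluster went from 0.15 to 0.26 with library totals alone, a scaling that moved the median of all genes to 0.11, and to 0.39 with no filter on low counts. The median of the chromosome 1 members went from -0.26 to -0.58 with no filter, when S100A9 entered it. With at least 10 counts in every library S100P had no value, and the 1 called S100 gene outside the members, S100A5, was no longer tested, leaving 0. S100P was at -12.72 after thinning to the smallest library, against -13.00, and ranged from -16.02 without MET-KO replicate 2 to -12.13 without MET-KO replicate 1, since 1 library holds both of its MET-KO counts. Over the alternatives S100A14 ranged from -6.88 to -6.71, S100A13 from 1.34 to 1.59, S100A10 from -0.91 to -0.77, S100A11 from -0.61 to -0.47 and S100A6 from 0.32 to 0.55 on the log2 scale. In 10 cases a member other than S100P moved by more than the replicate SD, among them S100A10, S100A11, S100A14 (-6.71) and S100A16 (-3.84) with library totals alone. DESeq2's Wald test called 5760 genes, 5756 of them shared with the 7467 of edgeR, and leaving out 1 library called 6289 to 7083. Same-numbered libraries did not deviate together over the tested genes (correlation -0.0216). With 2 libraries per group, where such deviations are largely counting noise, this cannot tell whether the numbers pair the samples. With the replicate block 7055 genes and 8 members were called, and nothing is read from the members' count. Over the members and all genes of the partner and EF-hand lists, named in the text or not, a call was lost in 28 cases and gained in 4. With 2 libraries per group, a low gene's spread is poorly known.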
